A study of Homo sapiens with 6 samples.

Results

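The MYC network is a family of basic helix-loop-helix-zipper transcription factors, and 10 of its genes are described here: MYC, MYCN, MYCL, MAX, MXD1, MXD3, MXD4, MXI1, MNT and MLX. They were taken as every probe set whose gene symbol in the platform annotation was one of these names. This gave 44 of the 49293 probe sets tested and 10 of 18239 genes. Expression was measured on 6 Affymetrix arrays in MV4;11 cells, an established human leukemia line whose MLL gene (KMT2A) is rearranged. In one group, 3 cultures received 4 µM MI-389, an inhibitor of the contact between menin and MLL. In the other, 3 cultures received DMSO alone. Both groups contained 0.25% DMSO and were kept for 6 days, with fresh medium and agent on day 3, and all come from this single line. The labels name biological replicates but not how their cultures were kept apart. The p-values therefore cover only the scatter among these 6 samples, part of which may be technical.

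MYC, MYCN and MYCL are transcription activators that bind DNA only as a pair with MAX. The MXD proteins, MXI1 and MNT also pair with MAX, bind the same E-box sequence, and recruit the SIN3 corepressor with its histone deacetylases, so that MAX is shared between activating and repressing pairs. MLX heads a parallel arm. It pairs with MXD1, MXD4 and MNT, and also with the glucose-responsive activators MLXIP (MondoA) and MLXIPL (ChREBP). MYC drives growth and proliferation in many leukemias, and MXD proteins are known for appearing as blood cells differentiate.

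The preferred site of these factors has the letters CACGTG, which read the same on both strands. RefSeq promoters on GRCh38.p14, covering 250 bases before to 50 bases after a gene's start, were found for 9 of the 10 genes, all but MYC. The letters occur in 3 of the 12 promoters of the 9 genes and in 7.26% of all 35116 promoters in that table. By gene, MLX, MNT and MXD4 hold them, 3 of 9, against 8.77% of all genes in the table. That share also covers genes not measured here. Among measured genes with a promoter in the table, 1583 held the letters and 12909 did not. The letters were not found in these windows for MYCL, MXD1, MXD3 and MXI1, which also changed, nor for MYCN and MAX. These promoters are shown because the network's own site lies in genes of the network that changed. The site is in capitals, with up to 30 bases on each side, 5′ to 3′ on the gene's strand.
MLX (chr17:42567020-42567085, plus strand): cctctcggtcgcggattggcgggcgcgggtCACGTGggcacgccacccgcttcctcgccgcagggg
MNT (chr17:2401218-2401283, minus strand): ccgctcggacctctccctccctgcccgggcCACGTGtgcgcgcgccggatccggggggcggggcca
MXD4 (chr4:2262312-2262359, minus strand): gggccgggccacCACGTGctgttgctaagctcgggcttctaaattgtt
A match of letters is a description and not a measured binding site. The genes MLX and MNT were lower with MI-389 and MXD4 was higher, as given below.

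Values are log2 expression as deposited, and a gene is represented by its brightest probe set, the one with the highest mean over all 6 arrays. Rose and fell refer to an adjusted p under 0.05 from limma, fitted to all genes or all probe sets with Benjamini-Hochberg adjustment. Control probe sets of nonspecific sequence reached 5.49 once the most GC-rich of them was set aside, and that level serves as a guide to background. RMA compresses dim values, so differences near or under it are understated. Pearson correlations within a group were 0.997 to 0.998 across probe sets, which are not independent replicates. Among markers of the line, FLT3, PTPRC, LYZ, CSF2RA and CD4 were above the guide in both groups, SPI1 was under it in both, and CD33 was not analysed here. Of 14 markers of other cell types, 12 were under the guide in both groups, and PECAM1 was above it in both. KRT18, an epithelial keratin, had 4.83, 4.82 and 4.73 with MI-389, against 6.21, 5.94 and 6.00 with DMSO, and was lower by at least 1.48-fold when the guide replaced its MI-389 level (limma adjusted p = 6.63e-07). In these bulk samples, fewer cells expressing a gene and less RNA per cell cannot be told apart.

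Of the 10 genes, 4 rose with MI-389 (MYCL, MXD3, MXD4 and MXI1) and 3 fell (MXD1, MNT and MLX), while MYC, MYCN and MAX did not pass the test. The probe set that represents MXD4 was its brightest only through the MI-389 arrays. Over all 18239 genes, 18.4% rose and 15.7% fell. Without the genes in the lowest 40% by mean level, these shares were 29.4% and 26.0%. The arrays of the 2 treatments did not overlap for 8 of the 10 genes, against 45.3% of all genes. The median log2 change was 0.05 over the 10 genes and 0.02 over all genes. The changes were small except for MYCL, and the members that fell and those that rose both included repressors.

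**Figure D1:**
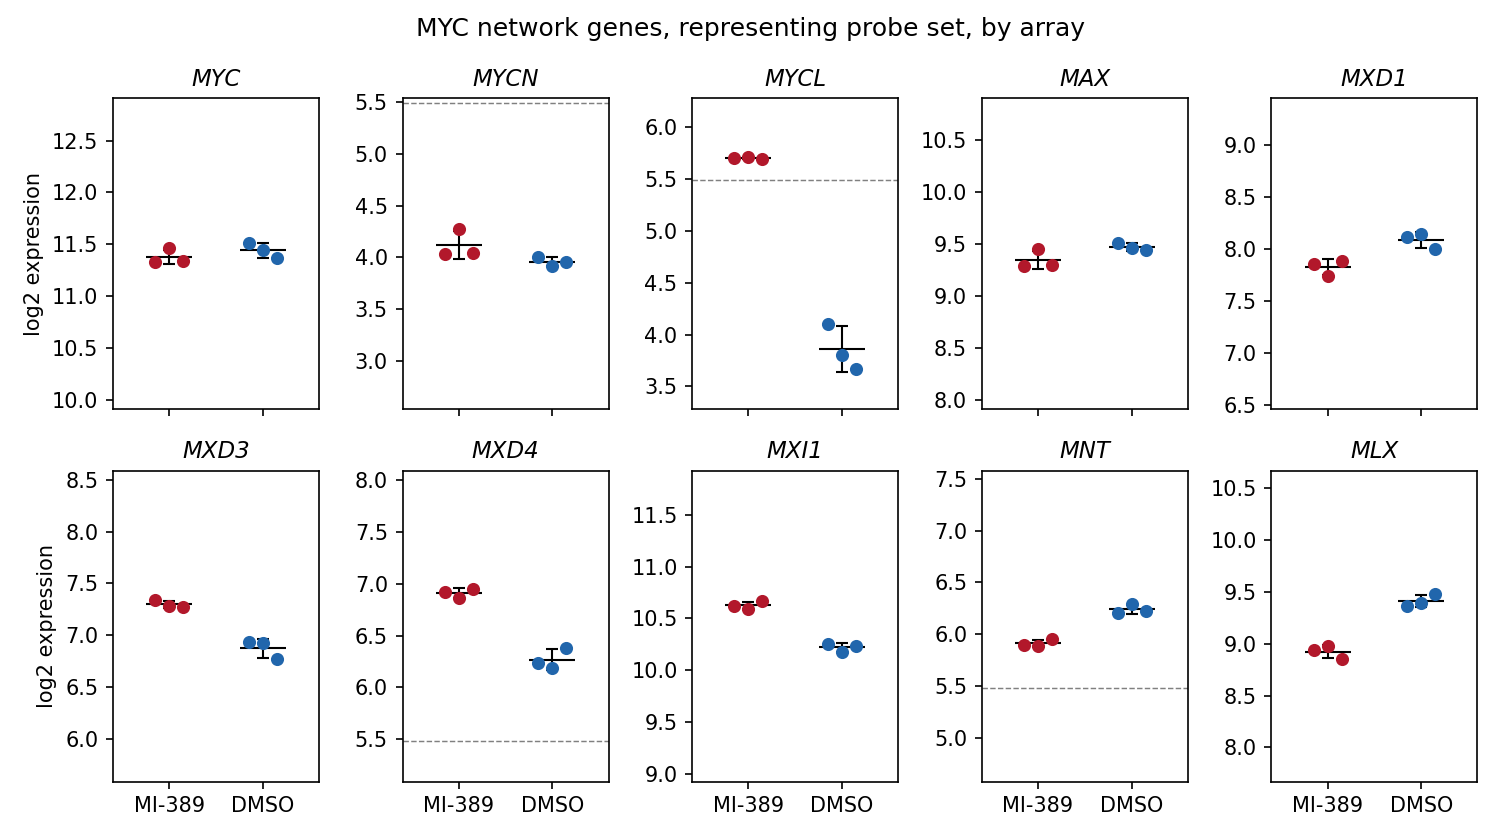
Log2 expression of the representing probe set of each of the 10 genes, with 1 point per array, 3 MI-389 arrays on the left and 3 DMSO arrays on the right of each panel. Horizontal bars are means, error bars are SD, the dashed line is the background guide of 5.49, and every panel spans 3 log2 units; MYCL crosses the guide, and MYC overlaps between the groups.

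MYC, the best known activator of the family, had 11.33, 11.46 and 11.34 with MI-389, against 11.51, 11.45 and 11.37 with DMSO. The groups overlapped, and the level was far above the guide on each array. The log2 difference was -0.06 (95% interval -0.21 to 0.08, limma adjusted p = 0.497), from the only probe set of the gene. In folds, the interval ran from 1.15-fold lower to 1.05-fold higher. With the arrays centred on the hybridisation spike-ins, 9 bacterial and phage control probe sets that were 0.25 higher on the MI-389 arrays, MYC passed the test at -0.32 (limma adjusted p = 0.00415). That centring lowers every gene alike.

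MYCN, the neuronal paralog of MYC, stayed under the background guide on all 4 of its probe sets. Its brightest probe set had 4.03, 4.27 and 4.04 with MI-389, against 4.00, 3.92 and 3.96 with DMSO. The difference of 0.16 did not pass the test (95% interval -0.0049 to 0.32, limma adjusted p = 0.132).

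MYCL, a further activator of the family, which in mice is known for its part in dendritic cells, showed the largest change of the 10 genes on 1 probe set. This probe set had 5.71, 5.71 and 5.69 with MI-389, against 4.10, 3.80 and 3.67 with DMSO. The MI-389 arrays lay close together just above the guide, and the DMSO arrays lay below it. The log2 difference was 1.85 (SE 0.10, limma adjusted p = 2.57e-07). Set against the guide in place of the DMSO level, this was at least 1.16-fold higher. The other 3 probe sets of MYCL were under the guide in both groups, with differences of -0.03 to 0.13 and none called. In another setting, probe sets whose names end in _a_at, _s_at or _x_at were used last (unspecific suffixes last). That order does not show that such probe sets read other genes. A probe set under the guide in both groups then represented MYCL at 0.13, not called (limma adjusted p = 0.195). With the mean of all 4 probe sets, MYCL was 0.50 (limma adjusted p = 1.32e-05). Whether these probe sets read different transcripts of MYCL was not tested.

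MAX, the partner that MYC, MYCN and MYCL need to bind DNA, differed between its 12 probe sets. Its brightest probe set had 9.29, 9.45 and 9.30 with MI-389, against 9.51, 9.47 and 9.44 with DMSO. The highest MI-389 array overlapped the DMSO arrays, and the difference was -0.13 (95% interval -0.26 to 0.01, limma adjusted p = 0.156). Of the 12 probe sets, 6 fell, 0 rose and 6 were not called, against 14.0% of all probe sets that rose and 14.0% that fell. The falls ran from -0.25 to -0.76 on the log2 scale.

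The probe set of MAX with the deepest fall had 5.22, 5.29 and 5.03 with MI-389, against 6.01, 5.95 and 5.87 with DMSO. Measured against the guide, which the MI-389 arrays did not reach, it was lower by at least 1.37-fold. Another, above the guide in both groups, had 5.94, 5.91 and 5.53 with MI-389, against 6.43, 6.63 and 6.46 with DMSO, a difference of -0.72 (SE 0.11, limma adjusted p = 5.34e-04). The groups did not overlap on any of the 6 probe sets that fell. A call nearly implies this, so it adds little to the calls. Over all probe sets, called or not, the groups did not overlap on 40.4%. A further MAX probe set, under the guide and not called, had all MI-389 arrays above all DMSO arrays, at 0.17. The 5 probe sets of MAX under the guide in both groups were not called. The mean of all 12 probe sets fell by 0.23 (limma adjusted p = 0.00542), and with unspecific suffixes last a dim probe set represented the gene at 0.17, in the other direction and not called (limma adjusted p = 0.0732). Which MAX transcripts each probe set reads was not tested.

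Among the repressors, MXI1, MXD4 and MXD3 rose, and MXD1 and MNT fell. MXI1, also called MXD2, had 10.61, 10.59 and 10.67 with MI-389, against 10.26, 10.17 and 10.24 with DMSO. All MI-389 arrays were above all DMSO arrays, with a difference of 0.40 (SE 0.05, limma adjusted p = 2.41e-04), which is 1.32-fold. Of its 5 probe sets, 3 rose and the other two were not called, and all 5 differences were positive, from 0.18 to 0.40. Of the 3 that rose, 2 were above the guide in both groups and 1 was under it in both.

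MXD4, a MAX partner of differentiated and resting cells, had 6.92, 6.86 and 6.95 with MI-389, against 6.24, 6.19 and 6.38 with DMSO. The groups were well apart, and the difference was 0.64 (SE 0.06, limma adjusted p = 2.90e-05), or 1.56-fold. The other 4 probe sets of MXD4 were not called. Of these, one that was nearly as bright over the 6 arrays had 6.59, 6.66 and 6.52 with MI-389, against 6.68, 6.49 and 6.53 with DMSO, a difference of 0.03. With DMSO it was the brighter, at a mean of 6.56 against 6.27 for the representing probe set. The representing probe set was thus the brightest only through its MI-389 arrays, and the call of MXD4 depends on that choice. With unspecific suffixes last, a probe set under the guide in both groups represented MXD4 at 0.02, not called (limma adjusted p = 0.940). With the mean of all probe sets, MXD4 was 0.22 (limma adjusted p = 0.00701).

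MXD3, the MXD protein known from cycling cells, had 7.34, 7.28 and 7.27 with MI-389, against 6.93, 6.92 and 6.77 with DMSO. The groups did not overlap, and the difference was 0.42 (SE 0.06, limma adjusted p = 4.03e-04), or 1.34-fold. Its other two probe sets were under the guide in both groups and not called. With unspecific suffixes last, 1 of these dim probe sets represented MXD3 at 0.15, not called (limma adjusted p = 0.171). With the mean of all probe sets, MXD3 was 0.19 (limma adjusted p = 0.00907).

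MXD1, first described as MAD and known to appear when myeloid cells mature, had 7.85, 7.74 and 7.89 with MI-389, against 8.12, 8.14 and 8.003 with DMSO. All MI-389 arrays were lower than all DMSO arrays. MXD1 fell by 0.26 (SE 0.06, limma adjusted p = 0.00957), or 1.20-fold, and its second probe set, under the guide in both groups, differed by -0.14 and was not called. In the same arrays, 13 of 15 measured monocyte and macrophage markers rose and 0 fell, against 18.4% and 15.7% of all genes. The summed linear signal of these 15 markers was 12927 to 13968 with MI-389, against 3042 to 3064 with DMSO. Most of both sums was LYZ, also a marker of the line. LYZ had 13.12, 13.10 and 13.18 with MI-389, against 11.06, 11.08 and 11.08 with DMSO. CD14, CD163, FCN1, VCAN and FCGR3A stayed under the guide in both groups, and CD14, CD163 and FCN1 are among the 13 counted as risen. The part of maturation in the changes of the network was not tested.

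MNT, the broadly expressed repressor that opposes MYC in most cells, had 5.90, 5.89 and 5.95 with MI-389, against 6.21, 6.29 and 6.22 with DMSO. The groups did not overlap, and MNT fell by 0.33 (SE 0.05, limma adjusted p = 9.58e-04), or 1.26-fold. Its second probe set, under the guide in both groups, differed by 0.17 in the other direction and was not called. With the mean of both, MNT was at -0.08 and was not called (limma adjusted p = 0.281).

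MLX showed the most uniform change of the 10 genes, since all 6 of its probe sets fell. The brightest had 8.94, 8.98 and 8.85 with MI-389, against 9.37, 9.40 and 9.48 with DMSO. The difference was -0.49 (SE 0.06, limma adjusted p = 1.08e-04), and the groups were apart on each of the 6 probe sets. The others differed by -0.39 to -0.84. The probe set with the deepest fall had 7.89, 7.82 and 7.72 with MI-389, against 8.64, 8.70 and 8.62 with DMSO, and 5 of the 6 were above the guide in both groups. Probe sets of a gene can share sequence and are not replicates. Over all probe sets 14.0% fell, and the groups did not overlap on 40.4%. Groups that lie apart are nearly implied by a call and add little to it. The mean over the 6 MLX probe sets fell by 0.67 (SE 0.05, limma adjusted p = 1.85e-06).

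**Figure D2:**
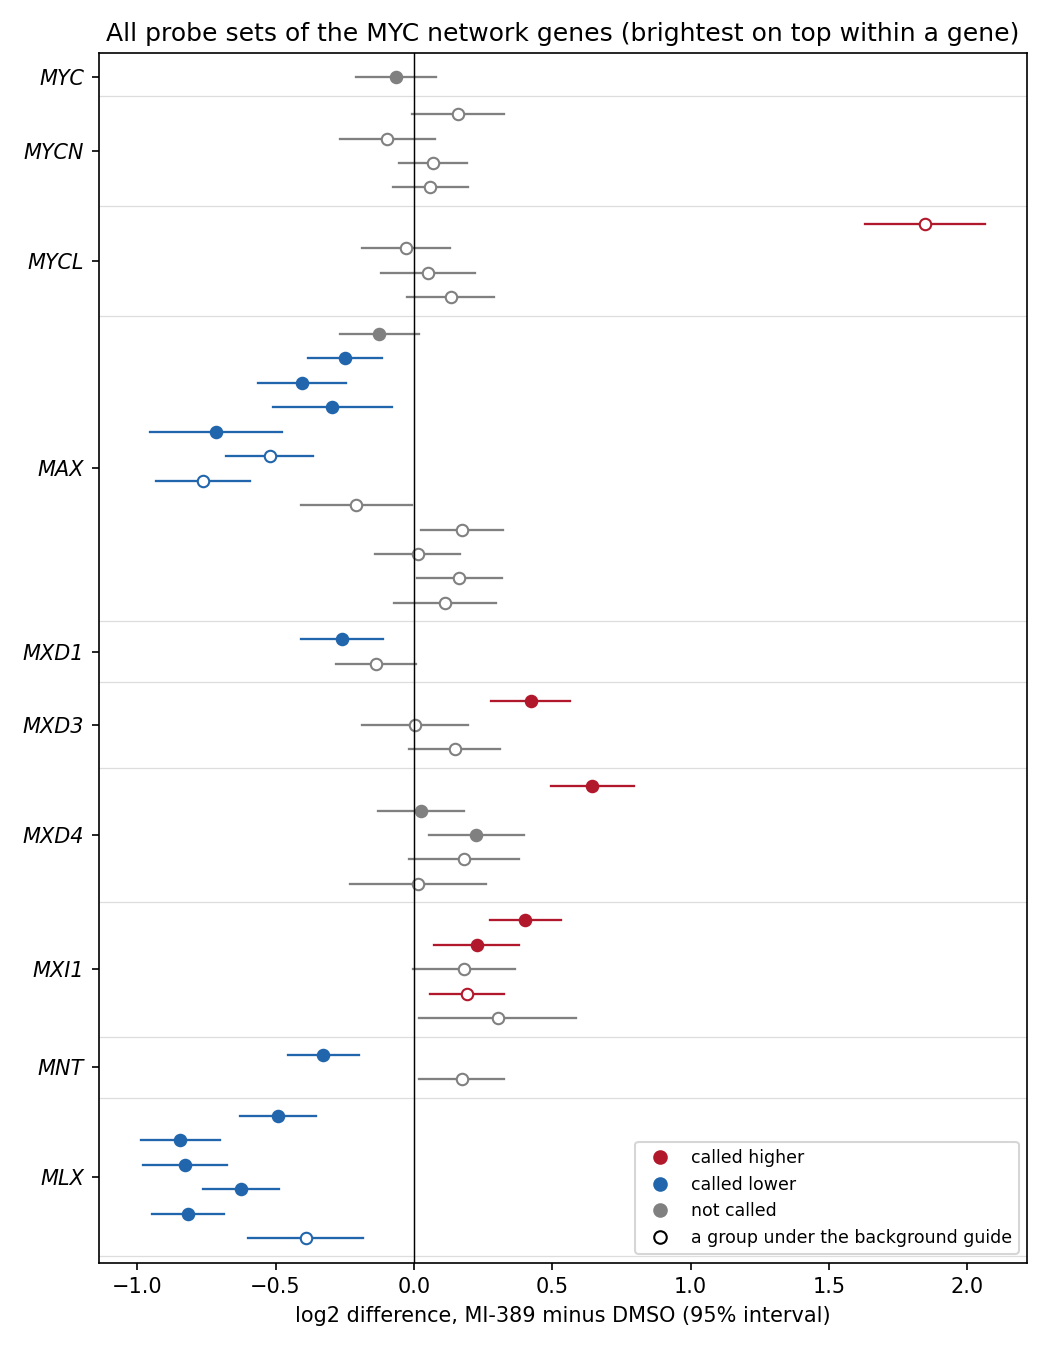
Log2 difference, MI-389 minus DMSO, of all 44 probe sets of the 10 genes with 95% intervals from limma, brightest on top within each gene; open symbols have at least 1 group under the background guide. All 6 MLX probe sets lie left of zero and are called lower, MAX has 6 called lower, and 1 of 4 MYCL probe sets stands apart at 1.85.

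Over all 44 probe sets, 6 rose, 14 fell and 24 were not called, against 14.0% of all probe sets in each direction. MLX and MAX held 12 of the 14 that fell. Both groups were above the guide for 19 probe sets, of which 4 rose, 11 fell and 4 were not called. The 14.0% also covers dim probe sets, and no share was computed for all probe sets above the guide. These 19 counts therefore have no matching share beside them. Neither group was above it for 22, of which 2 were called. The median difference was 0.01 over the 44 and 0.01 over all probe sets.

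A shift common to a whole array cancels when each gene is set against MYC on the same array. The change of each gene minus the change of MYC was 1.91 for MYCL, 0.71 for MXD4, 0.49 for MXD3, 0.47 for MXI1 and 0.22 for MYCN. It was -0.43 for MLX, -0.26 for MNT, -0.20 for MXD1 and -0.06 for MAX. For all 9 genes the 3 MI-389 values lay on one side of the 3 DMSO values, as for 41.5% of all genes set against MYC in this way. The same MYC values enter all 9 differences, so these are not independent of each other. The exact two-sided permutation test over samples gave p = 0.1 for each, also after adjustment over the 9 comparisons, and 0.1 is the smallest p that 3 against 3 allows. The MYCN value rests on levels under the guide. For MAX the groups overlapped before MYC was subtracted, and the difference relative to MYC was -0.00098 after a further quantile normalisation.

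**Figure D3:**
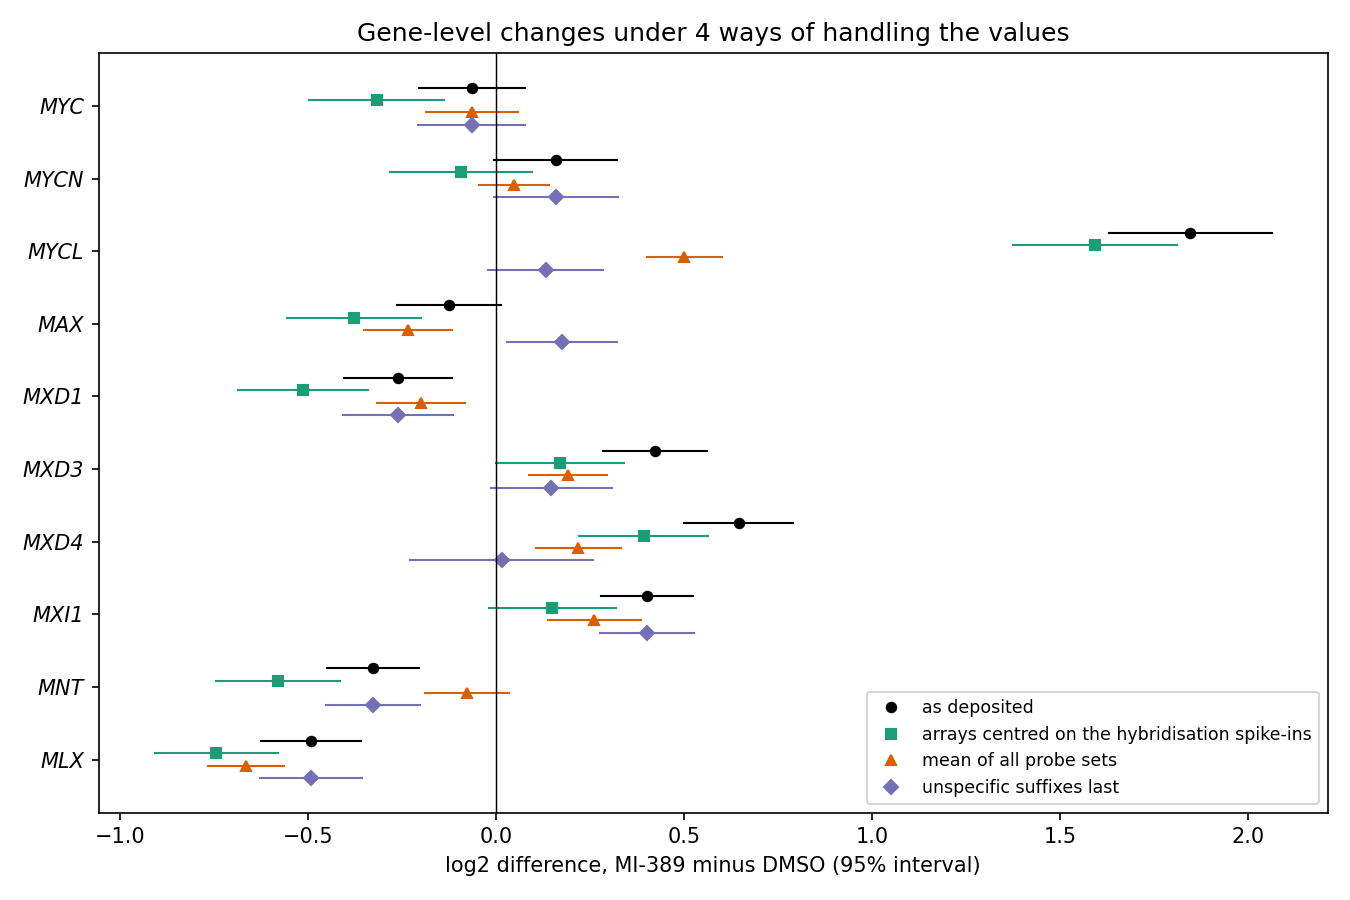
Log2 difference, MI-389 minus DMSO, of the 10 genes with 95% intervals from limma, for the values as deposited, the arrays centred on the hybridisation spike-ins, the mean over a gene's probe sets, and probe sets with unspecific suffixes used last. The intervals of MLX and MXD1 lie left of zero in all 4, that of MXI1 crosses zero with spike-in centring, and the point of MAX lies on both sides.

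Centring on the hybridisation spike-ins gave 2 genes higher and 5 lower among the 10, where the values as deposited gave 4 and 3. MYCL (1.59) and MXD4 (0.39) remained called higher, and MXD3 (0.17) and MXI1 (0.15) were not called. MLX, MNT and MXD1 were lower there at -0.74, -0.58 and -0.51, with MYC and MAX (-0.38) added. Over all genes, that centring gave 1397 higher and 11056 lower and moved the median to -0.23. Its cause was not tested.

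The 3 listed partners of the network outside the 10 genes were all called, 2 higher and 1 lower. Without dim genes, 29.4% of all genes rose and 26.0% fell. MLXIP, the MLX partner that senses glucose phosphates, had 9.01, 8.99 and 9.01 with MI-389, against 8.10, 8.22 and 8.29 with DMSO. It rose by 0.80 (SE 0.06, limma adjusted p = 4.24e-06), with 2 of 4 probe sets called. MLXIPL had 5.35, 5.31 and 5.29 with MI-389, against 5.76, 5.61 and 5.58 with DMSO. It fell by 0.33 with 4 of 4 probe sets called, and, with the guide in place of the MI-389 level, was lower by at least 1.12-fold. The gene MGA, a MAX partner of a repressive Polycomb complex, had 7.85, 7.79 and 7.94 with MI-389, against 7.24, 7.46 and 7.44 with DMSO, a rise of 0.48 (SE 0.07, limma adjusted p = 5.03e-04), with 1 of 3 probe sets called. MLX and MLXIP thus stood on opposite sides, -0.49 and 0.80, on these arrays.

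Further lists of the network's cofactors and targets were counted in the same fit. With these 3 partners, 119 genes were listed and 109 measured, of which 29 rose (26.6%), 32 fell (29.4%) and 48 were not called. These shares are close to those of all genes with dim genes left out, and only 2 of the 109 were that dim. The median change was 0.03.

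Of 14 measured genes of the SIN3 and histone deacetylase corepressor, 4 rose and 3 fell, with a median of 0.11. Without dim genes, 29.4% of all genes rose and 26.0% fell. SAP30, a SIN3-binding subunit, had 8.92 ± 0.12 with MI-389 and 7.93 ± 0.03 with DMSO (log2 mean ± SD, n = 3 each), a rise of 0.99, with all 3 probe sets called. The histone-binding subunit RBBP7 rose by 0.40 and ING2, a reader of methylated histone H3, by 0.39. BRMS1 (-0.45), SAP18 (-0.28) and ARID4B (-0.18) fell. The scaffolds SIN3A (-0.13) and SIN3B (0.19) and the deacetylases HDAC1 (0.10) and HDAC2 (0.16) did not pass the test. With spike-in centring 1 of the 14 was higher and 6 were lower, and with unspecific suffixes last 1 was lower. ARID4A, BRMS1L and NCOR1 were not analysed here.

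Of 18 measured coactivators of MYC, 8 rose and 5 fell, against 29.4% and 26.0% of all genes without dim ones. The median was 0.06. The acetyltransferase CREBBP rose by 0.40 with 3 of 5 probe sets called, and the remodeller BPTF by 0.37 with 5 of 6. KAT2B, another acetyltransferase, was higher by 0.60 with 1 of 3 probe sets called, at least 1.44-fold when set against the guide, which its DMSO mean did not reach. RUVBL1 (-0.74), an ATPase of the TIP60 complex, SMARCB1 (-0.56), a SWI/SNF subunit that binds MYC, and the elongation kinase CDK9 (-0.55) fell most. Without DMSO replicate 2, and likewise without DMSO replicate 3, the number that rose was 5. With spike-in centring the balance turned, with 1 of the 18 higher and 9 lower.

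Of 16 measured factors of MYC protein turnover, 4 rose and 4 fell, against 29.4% and 26.0% of all genes without dim ones. The median was 0.02. FBXW7, the substrate receptor that marks phosphorylated MYC for degradation, had 7.50, 7.49 and 7.70 with MI-389, against 8.22, 8.20 and 8.22 with DMSO. It fell by 0.65 (SE 0.07, limma adjusted p = 3.55e-05), with 3 of 3 probe sets called. USP36, a nucleolar deubiquitinase of MYC, fell by 0.49, and the ligase HUWE1 by 0.24. SKP2, another ligase of MYC, was higher by 0.58, at least 1.17-fold when set against the guide, and CIP2A, an inhibitor of the phosphatase acting on MYC, rose by 0.27. BTRC (0.33) and USP28 (0.25) passed the test as higher with both groups under the guide. With spike-in centring 1 of the 16 was higher and 10 were lower, and with the mean of all probe sets 2 were higher and 4 lower. No MYC protein was measured on these arrays.

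Of 38 measured genes that MYC is known to activate, 5 rose and 14 fell, against 29.4% and 26.0% of all genes without dim ones. The median was -0.10. With an array left out, 4 to 5 rose and 10 to 13 fell. The mitochondrial serine hydroxymethyltransferase SHMT2 had 8.54 ± 0.10 with MI-389 and 9.66 ± 0.07 with DMSO, a fall with a log2 difference of -1.13 (log2 mean ± SD, n = 3 each). Its cytosolic counterpart SHMT1 rose, with 7.08 ± 0.02 with MI-389 and 6.07 ± 0.08 with DMSO, a difference of 1.00. The D-type cyclin CCND2 fell by 1.09 and the purine enzyme GART by 0.44. MTHFD1, a cytosolic folate enzyme, rose by 0.35 and the phosphatase CDC25A by 0.37. With the arrays centred on the hybridisation spike-ins, 1 of the 38 was higher and 29 were lower.

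Of 13 measured genes that MYC is known to lower, 4 rose and 4 fell, against 29.4% and 26.0% of all genes without dim ones. The median was 0.03. The cyclin kinase inhibitors CDKN1A (-1.77) and CDKN1B (-0.74) and the stress gene GADD45A (-0.85) fell. TGFBI, an extracellular matrix protein, was higher by 2.34 and at least 4.44-fold when set against the guide. Clusterin (CLU) rose by 1.05 and the myeloid factor CEBPA by 0.66. The list thus held large changes in both directions. With spike-in centring 3 of the 13 were higher and 7 lower. TGFBI and CEBPA are also genes of myeloid cells.

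Of 7 targets of MLX with its glucose-responsive partners, 2 rose and 1 fell, against 29.4% and 26.0% of all genes without dim ones. The median was 0.13. PFKFB2, which makes an activator of glycolysis, rose by 1.27 with 1 of 6 probe sets called, at least 2.25-fold when set against the guide. ARRDC4 rose by 0.20, with 8.45, 8.39 and 8.51 with MI-389, against 8.29, 8.26 and 8.20 with DMSO, and KLF10 fell by 0.22. TXNIP, the most used readout of MLXIP and MLX activity, differed by 0.13 and did not pass the test (limma adjusted p = 0.183), with 0 of 5 probe sets called. The calls in this list were not stable, since KLF10 was not called without MI-389 replicate 1, without DMSO replicate 1 or without DMSO replicate 2. The number that rose was 1 without MI-389 replicate 1 or 3 and without DMSO replicate 2 or 3. It was also 1 with the mean of all probe sets and 0 with unspecific suffixes last, where neither PFKFB2 nor ARRDC4 was called higher. With spike-in centring 1 of the 7 was higher and 3 were lower.

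**Figure D4:**
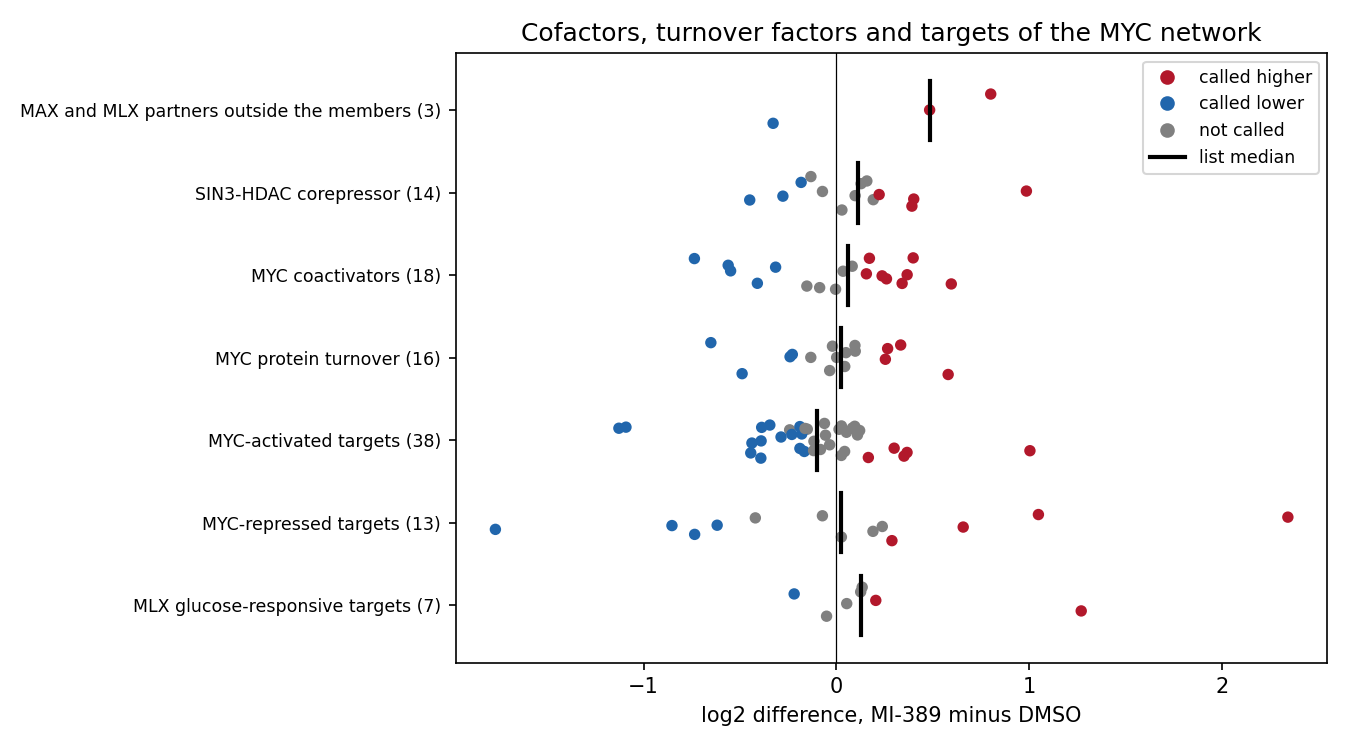
Log2 difference, MI-389 minus DMSO, of the measured genes of 7 lists around the MYC network, with 1 point per gene coloured by its call and a black bar at each list's median; the number measured is in brackets. Medians lie between -0.10 and 0.13 except for the 3 partners of MAX and MLX, and MYC-activated targets have 14 called lower and 5 higher. Without dim genes, 26.0% of all genes were called lower and 29.4% higher.

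The genes whose profile over the 6 arrays was nearest to that of the member with the largest rise and of the member with the largest fall were taken by the Euclidean distance of log2 values centred on each gene's mean, among 18238 other genes. For MYCL these were ANKRD35, P2RY6, PSTPIP1, IQGAP2 and TXNDC16, at distances of 0.17 to 0.22, with differences of 1.80 to 1.88. For MLX they were CREM, BEX3, TMEM44, TMEM179B and ATXN2L, at distances of 0.04 to 0.08, with differences of -0.51 to -0.46. The 6 arrays form 2 groups, so the likeness is mainly one of the size of the difference. Part of it rests on values at background, since MYCL, P2RY6, PSTPIP1 and TXNDC16 had DMSO means under the guide, and CREM and TMEM44 were under it in both groups.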

How the data were processed

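Total RNA of 6 cultures was labelled from the 3-prime ends of transcripts, per the labels' protocols. The deposited log2 values, 1 per probe set and array, were used as they stand; per the submitters' processing notes, the authors used RMA and limma, with settings not given in the sources used here. Array medians were 4.47 to 4.49. Arrays have no sequencing depth, and their small number limits the precision. Of 49386 probe sets, 93 controls were left out of the tests. Gene names came from the platform annotation, updated through gene IDs in RefSeq's table of GRCh38.p14, and 45253 probe sets had 1 gene. MI-389 was compared with DMSO in limma 3.58.1 under R 4.3.3 (lmFit and eBayes, two-sided, no covariates). The code of the fit was tested on simulated data in which far fewer genes changed than were called here. That is a check of the code and not of these calls. Names follow a fixed rule: all 10 genes, and up to 3 called higher and 3 called lower in each list. The 5 nearest profiles to 2 genes are also named. A few others are named for their role or level, after their values were seen. Members and lists were chosen with earlier results of these data known. Alternatives covered scaling, dim genes, the variance model, the replicate block, the choice of probe sets and leaving out each array. Same-numbered arrays did not deviate together, so the replicate number was not used as a block.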

Additional observations from a re-analysis of the deposited data

How the results depend on the processing

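The gene counts of 4 higher and 3 lower held when each array was left out in turn (4 to 4 and 3 to 3), with a common median, further quantile normalisation, dim genes left out, the replicate block, and an intensity trend with robust variance. Leaving out arrays gave 4 to 9 probe sets higher and 12 to 14 lower, and 23 to 29 list genes higher and 26 to 31 lower. With spike-in centring, 2 genes were higher and 5 lower, 2 probe sets higher and 26 lower, and 10 list genes higher and 65 lower; it lowers every gene alike, and MYCN turned to -0.094. With unspecific suffixes last, 1 gene was higher, since dimmer probe sets represented MYCL, MXD3 and MXD4, and MAX turned to 0.17. Relative to MYC, quantile normalisation gave MAX -0.00098, and the mean of all probe sets gave MYCN 0.11, MYCL 0.57, MAX -0.17, MXD3 0.26, MXD4 0.28, MXI1 0.33, MNT -0.013 and MLX -0.60. With arrays left out these differences ran from 0.19 to 0.26 for MYCN, 1.86 to 2.00 for MYCL, -0.08 to -0.04 for MAX, -0.25 to -0.11 for MXD1, 0.45 to 0.54 for MXD3, 0.66 to 0.80 for MXD4, 0.43 to 0.52 for MXI1, -0.31 to -0.21 for MNT and -0.48 to -0.36 for MLX. The adjusted p of MXD1 reached 0.0472 with an array left out. Deviations of same-numbered arrays correlated at -0.20, 0.02 and -0.14; with the replicate block the 10 genes kept their calls (MXD1 adjusted p = 0.0259, limma), and MLX targets that rose numbered 1. Levels under the guide of 5.49 limit MYCN, MYCL and the dim probe sets of MAX.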

Other observations

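Other factors that read E-box sequences, a list added after the data were seen, held 11 measured genes, of which 3 rose and 1 fell. Over all genes, 18.4% rose and 15.7% fell. TFEC, a myeloid relative of MITF, had 9.10, 9.02 and 9.27 with MI-389, against 7.09, 7.07 and 7.14 with DMSO, a rise of 2.03 (SE 0.07, limma adjusted p = 1.31e-08), with all 3 probe sets called. SREBF1, the sterol and fatty acid regulator, fell by 1.37 and USF1 rose by 0.36. MITF (0.26) passed the test with both groups under the guide. USF2 (0.06), TFEB (-0.10), TFAP4 (-0.12) and SREBF2 (-0.05) were not called. With the arrays centred on the hybridisation spike-ins, 1 of the 11 was higher and 8 were lower, and with the mean of all probe sets 2 were lower.

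Among the genes measured on the arrays that have a RefSeq promoter, 1583 held CACGTG in at least 1 promoter and 12909 held none. Of the first, 20.3% rose and 20.5% fell, with a median change of 0.01, and of the second, 19.1% rose and 15.6% fell, with a median of 0.02. Among genes that MYC is known to activate, 5 of 15 with the letters fell and 6 of 18 without them. These are descriptions with no test.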
